A study of Mus musculus with 6 samples.

Results

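The heat shock proteins and chaperones of mature medullary thymic epithelial cells were followed across 2 Aire genotypes. Members were every gene in the deposited table whose symbol begins with Hspa, Hspb, Hspd, Hspe, Hsp90, Hsph, Dnaja, Dnajb, Dnajc, Cct or Bag followed by a number or the letter a or b. The rule used names only and found 78 of the 15643 genes. By role or symbol they were 9 HSP70 proteins, 3 HSP110 proteins, 3 HSP90 proteins and 7 Hspb members, the symbol of small heat shock proteins. The rest were 2 subunits of the mitochondrial chaperonin, 8 subunits of the cytosolic chaperonin CCT, 40 J proteins and 6 BAG proteins.

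Chaperones bind unfolded stretches of other proteins and help them fold, cross membranes or reach degradation. HSP70 proteins work through cycles of ATP use that J proteins (Dnaja, Dnajb and Dnajc) start and that HSP110 and BAG proteins end by releasing the nucleotide. HSP90 acts later on receptors and kinases, chaperonins enclose whole proteins in a chamber, and small heat shock proteins hold unfolded proteins in solution. A few members are induced by heat shock factor 1 when proteins unfold in the cytosol, and others by the unfolded protein response when they do so in the endoplasmic reticulum (ER), while most are made at all times.

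The cells were mTEChi, the MHC class II-high fraction, sorted at 4.5 weeks of age from the thymus of NOD mice, which develop autoimmune diabetes. All 6 libraries share strain, age, sort and protocol, and differ by label in Aire, the gene of a transcriptional regulator that lets these cells make proteins of other tissues. Libraries 745, 750 and 753 are labelled Aire +/+, and libraries 746, 748 and 749 Aire -/-. Expression was measured by MARS-seq, in which each captured transcript is counted once, at its 3′ end, by a unique molecular identifier (UMI). The labels name neither the deleted part of Aire nor the animals behind each library, so a p-value covers only the spread between libraries, which may be technical.

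The UMI total ran from 2736932 to 2887321 in the libraries labelled Aire+/+ and from 1014581 (library 746) to 1960802 in those labelled Aire-/-. Aire itself was higher in the libraries labelled Aire-/-, at 4500 to 5160 CPM (UMIs scaled to an equal library total adjusted by edgeR's TMM factors) against 2080 to 2470. A 3′ tag may lie outside a deleted part, so this does not check the labels, and every direction below rests on them. All 14 markers listed for mature medullary epithelium were in the table. Their summed levels were 33900 to 40000 CPM in the libraries labelled Aire+/+ and 58800 to 69200 CPM in the others. Over all 6 libraries, markers of T cells summed to 146 to 279 CPM and those of dendritic cells and macrophages to 1570 to 3420 CPM. Most of the medullary sum is the MHC class II genes H2-Aa, H2-Ab1 and H2-Eb1, the class that defines the sorted fraction (means of 10900, 12000 and 6510 CPM in Aire+/+). Epcam, another of the 14, was at 257 to 321 CPM. Of the 14, 6 were called higher, beside 8.59% of all genes tested, and 6 others had negative values with no call. Libraries 746 and 753 stand apart, with 28 and 90 UMIs of the glycolytic gene Gapdh against 2245 to 4166 in the other four, so results are also given without them. Members took 1.14% of all UMIs in each library labelled Aire+/+ and 1.04 to 1.10% in the others, before TMM scaling. With TMM scaling the direction was the reverse, since they summed to 10300 to 11200 CPM against 11500 to 11700 CPM.

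Every CPM value is scaled in this way, and a gene was called when edgeR's quasi-likelihood test gave a Benjamini-Hochberg adjusted p of at most 0.05 over all 11956 genes tested. Of the 78 members, 70 passed the filter on low counts and were tested. Estimated differences between the genotypes were small for most. Of these 70, 3 were called lower in the libraries labelled Aire-/- (4.29%, against 12.1% of all genes tested) and 5 were called higher (7.14%, against 8.59%). The lower members were Dnajb13, Dnajc25 and Hspa9, and the higher ones were Dnajb9, Hspb7, Hspa8, Dnajc19 and Hspb11. The median log2 fold change was 0.007 over the members and -0.023 over all genes tested. It lay within 0.5 of 0 for 60 members (85.7%), against 65.3% of all genes tested. The median SE of the tested members was 0.198, and the members were not matched to all genes for expression level. Changes of at least 2-fold were called for 4 members (5.71%), against 13% of genes. All libraries of one genotype lay below all of the other for 14 members that were lower in Aire-/- (20%, against 20.2% of genes) and 9 that were higher (12.9%, against 16.3%).

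**Figure D1:**
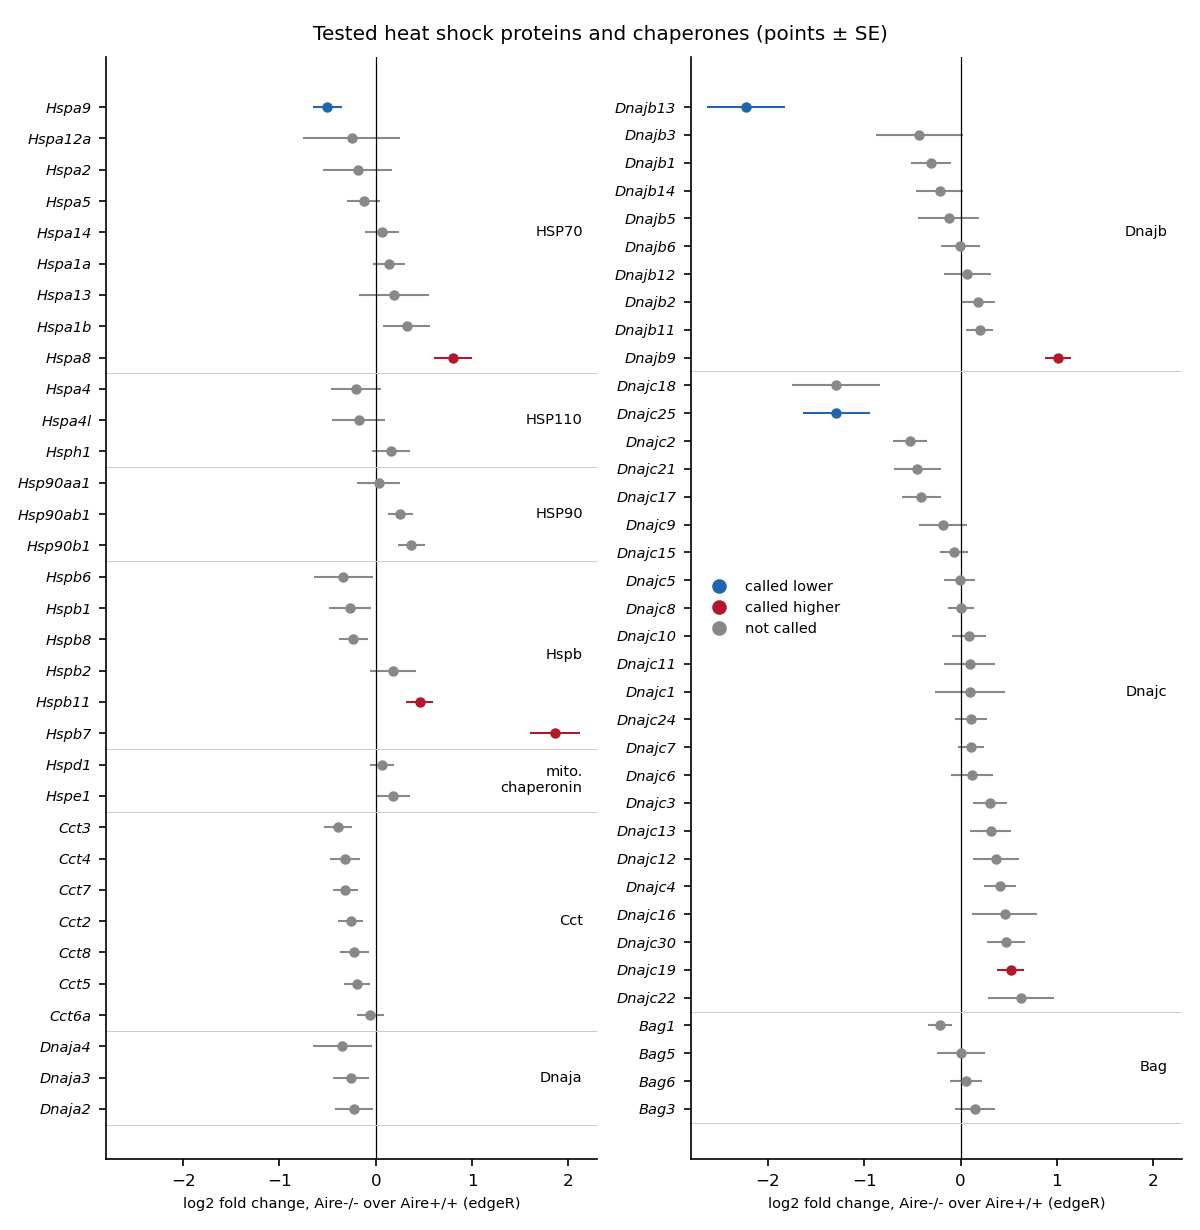
Log2 fold change of libraries labelled Aire-/- over Aire+/+ for the 70 tested members, in 10 role classes, as edgeR estimates ± SE (x axis, log2 units; blue, called lower; red, called higher; grey, not called). Most points lie within 0.5 of 0, and the 7 tested CCT subunits all lie left of it.

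Calls among the HSP70 proteins went to Hspa8, which rose, and Hspa9, which fell. Hspa8 encodes the constitutive cytosolic HSP70, which also strips clathrin from vesicles. It was at 486, 543 and 604 CPM in libraries 745, 750 and 753 and at 708, 838 and 1300 CPM in libraries 746, 748 and 749. The genotypes did not overlap, and library 749 lay far above the other two labelled Aire-/-. The difference was 0.80 on the log2 scale (SE 0.20, edgeR adjusted p = 0.0111, n = 3 and 3). Without library 745 it was 0.72 and no longer called (edgeR adjusted p = 0.0617), and without library 749 it was 0.51 and still called (edgeR adjusted p = 0.0176). Summed markers of dendritic cells and macrophages were also highest in library 749, at 3420 CPM against 1830 in both libraries 746 and 748 and 1570 to 1890 in the libraries labelled Aire+/+. Their part in the Hspa8 result was not tested. In RNA from pooled cells, fewer cells of a type and less RNA per cell cannot be told apart, here and in every result that follows. The last 300 bases of Hspa8 also match 12 annotated copies at up to 99.7% identity, so its count is uncertain where reads could be shared.

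Hspa9 encodes mortalin, the HSP70 of the mitochondrial matrix that pulls imported proteins across the inner membrane. Its levels were 101, 86.6 and 87.3 CPM in the libraries labelled Aire+/+ and 55.9, 61.8 and 75.2 CPM in those labelled Aire-/-. The genotypes did not overlap, with library 746 lowest. Hspa9 fell by 0.50 on the log2 scale (SE 0.15, edgeR adjusted p = 0.0363). This call is fragile, since it held in 6 of 13 alternative analyses and not without libraries 746 and 753, where the log2 fold change was -0.46 (edgeR adjusted p = 0.133).

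Hspa5 encodes BiP, the HSP70 of the ER and the usual marker of the unfolded protein response. It was at 1180, 1170 and 1370 CPM in the libraries labelled Aire+/+ and at 823, 1230 and 1350 CPM in those labelled Aire-/-. Library 746 was the lowest of all, while libraries 748 and 749 lay within the Aire+/+ range. The log2 fold change was -0.13 (SE 0.17, 95% interval -0.50 to 0.25), and Hspa5 was not called. Apart from Hspa1a and Hspa1b, the other HSP70 members had log2 fold changes from -0.25 for Hspa12a to 0.19 for Hspa13, an ER form, and none was called. Hspa14, which works at the ribosome with the J protein Dnajc2, had 0.06, and Hspa2, known for its role in male germ cells, had -0.19.

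Hspa1a and Hspa1b encode the heat-inducible HSP70 and lie in the MHC region of chromosome 17, at chr17:34969190-34972156 and chr17:34956436-34959238 (minus strand, mm10). Hspa1a was at 358, 455 and 489 CPM in the libraries labelled Aire+/+ and at 570, 464 and 400 CPM in libraries 746, 748 and 749. Hspa1b was at 291, 486 and 438 CPM and at 665, 536 and 320 CPM in the same order. The genotypes overlapped for both genes, and library 746 was highest for each. The log2 fold changes were 0.14 (95% interval -0.22 to 0.49) and 0.32 (95% interval -0.20 to 0.84), and neither was called. Without library 749, Hspa1b was called higher, at 0.57 (edgeR adjusted p = 0.0388). The class II genes of the same region rose, H2-Aa by 0.80, H2-Ab1 by 0.98 and H2-Eb1 by 0.87 on the log2 scale (edgeR adjusted p = 0.00175, 0.000292 and 0.000845). Within the last 300 bases of their transcripts, Hspa1a and Hspa1b did not match each other at the 80 bases and 90% identity used for copies.

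The 250 bases before the starts of Hspa1a, Hspa1b and Hspb1 are shown because all 3 heat-inducible genes were highest in library 746 and lowest in library 749 among those labelled Aire-/-. The sequences are RefSeq's, of build GRCm38.p6, read 5′ to 3′ on the gene's strand and ending at the base before the start. Capitals mark each match to the paired heat shock element GAANNTTC or TTCNNGAA, searched on both strands.
Hspa1a, GRCm38.p6 chr17:34972157-34972406, minus strand: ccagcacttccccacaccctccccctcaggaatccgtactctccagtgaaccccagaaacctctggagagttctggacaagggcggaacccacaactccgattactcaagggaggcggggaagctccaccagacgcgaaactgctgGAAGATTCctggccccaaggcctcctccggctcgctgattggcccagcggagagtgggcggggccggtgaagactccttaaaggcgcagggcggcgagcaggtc
Hspa1b, GRCm38.p6 chr17:34959239-34959488, minus strand: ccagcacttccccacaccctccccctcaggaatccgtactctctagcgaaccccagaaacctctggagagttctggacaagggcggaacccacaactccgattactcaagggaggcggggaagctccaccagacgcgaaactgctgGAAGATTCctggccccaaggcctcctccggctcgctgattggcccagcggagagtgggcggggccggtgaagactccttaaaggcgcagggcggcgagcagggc
Hspb1, GRCm38.p6 chr5:135887669-135887918, plus strand: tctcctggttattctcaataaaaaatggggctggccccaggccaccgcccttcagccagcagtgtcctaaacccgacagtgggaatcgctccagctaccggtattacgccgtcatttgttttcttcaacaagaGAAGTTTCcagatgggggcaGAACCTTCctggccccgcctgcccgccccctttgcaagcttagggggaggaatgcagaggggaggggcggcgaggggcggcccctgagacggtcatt
The Hspa1a and Hspa1b windows differ at 3 of 250 bases and hold the same single match, and the Hspb1 window holds 2. Of the 62 members with such a window, 15 held at least 1 match (24.2%), against 14.5% of all 27025 genes in that table. They include Hspd1, Hspe1, Hsph1, Dnaja1 and Dnaja4. Dnajb1, also highest in library 746 and lowest in library 749 among those labelled Aire-/-, held no match, and neither did Bag3. Hsph1 held 1 match, but among those libraries it was highest in library 749. A match describes the letters only, and of the 15 members with a match 12 were tested and none was called.

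HSP110 proteins release nucleotide from HSP70. None of the 3 was called, with log2 fold changes of -0.21 for Hspa4, -0.18 for Hspa4l and 0.16 for the inducible Hsph1. Hsph1 was at 51.2, 46.0 and 61.3 CPM in the libraries labelled Aire+/+ and at 48.6, 49.9 and 76.4 CPM in the others, so only library 749 left the Aire+/+ range.

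HSP90 members had positive values, except that Hsp90aa1 was negative with library totals alone and without library 749 or 750, and none was called. Hsp90b1 encodes GRP94, the HSP90 of the ER. It was at 1310, 1070 and 1340 CPM in the libraries labelled Aire+/+ and at 1590, 1510 and 1710 CPM in those labelled Aire-/-. All of the latter lay above all of the former. The log2 fold change was 0.37 (SE 0.14, 95% interval 0.07 to 0.67, edgeR adjusted p = 0.0775), and with DESeq2 it was 0.38 and just within the threshold (DESeq2 adjusted p = 0.0499). Hsp90ab1, the constitutive cytosolic form, was at 1100, 1320 and 1200 CPM against 1470, 1420 and 1430 CPM, again without overlap, and its log2 fold change of 0.26 (95% interval -0.02 to 0.54) was not called. Hsp90aa1, the inducible cytosolic form, was at 61.2, 35.0 and 52.5 CPM against 49.7, 41.7 and 60.4 CPM. These overlap throughout, and its log2 fold change of 0.03 ran from -0.18 to 0.20 over the alternative analyses.

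Among the Hspb members, Hspb7 and Hspb11 rose. Hspb7, known for its role in heart and skeletal muscle, lies at chr4:141420779-141425311 (plus strand, mm10). It was at 5.95, 9.66 and 6.77 CPM in the libraries labelled Aire+/+, from 18, 29 and 20 UMIs. In libraries 746, 748 and 749 it was at 26.9, 26.0 and 29.0 CPM, from 26, 48 and 47 UMIs. The genotypes lay far apart and the libraries within each lay close together. With a log2 fold change of 1.86 (SE 0.26, edgeR adjusted p = 0.000211), or 3.64-fold, Hspb7 had the largest increase of any tested member. It was called in 13 of 13 alternative analyses, where the log2 fold change ran from 1.66 to 2.09.

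Of the markers listed for muscle-like cells, 9 of 10 were in the table. Of the 6 tested, 3 were called lower and 1 higher, beside 12.1% and 8.59% of all genes tested. Actc1 (cardiac actin) was at 15.0 to 27.4 CPM in the libraries labelled Aire+/+ and had 0 UMIs in every other, and Ckm and Tnnt1 fell as well. Des, which encodes the intermediate filament desmin, rose by 1.43 on the log2 scale, from a mean of 264 CPM to one of 713 CPM (edgeR adjusted p = 7.86e-06). Hspb7 thus moved with Des and opposite to Actc1, and the summed marker level of 372 to 381 CPM against 736 to 806 CPM is mostly Des. The part of muscle-like cells in the Hspb7 result was not tested.

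Hspb11 encodes IFT25, a part of the intraflagellar transport complex of cilia, and is placed in this class by its symbol alone. It was at 156, 168 and 198 CPM in the libraries labelled Aire+/+ and at 251, 216 and 250 CPM in the others. The genotypes did not overlap. Its log2 fold change was 0.46 (SE 0.14, edgeR adjusted p = 0.0326), and the call held in 10 of 13 alternative analyses.

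Hspb1 encodes HSP25 of mouse, an inducible small heat shock protein. It was at 650, 850 and 687 CPM in the libraries labelled Aire+/+ and at 866, 505 and 452 CPM in libraries 746, 748 and 749. Library 746 lay above every Aire+/+ library and libraries 748 and 749 below every one of them. The log2 fold change was -0.27 (95% interval -0.73 to 0.20) and was not called. Without library 746, Hspb1 was called lower at -0.60 (edgeR adjusted p = 0.0111), and without libraries 746 and 753 at -0.65 (edgeR adjusted p = 0.023). Library 746 thus decides the call. Of the other tested members, Hspb8, the partner of Bag3 in selective autophagy, had -0.23, Hspb6 -0.34 and Hspb2 0.18, none called. The 3′ end of Hspb2 overlaps that of Cryab on the opposite strand, another small heat shock protein gene at -0.48 on the log2 scale (edgeR adjusted p = 0.154), and the strand setting of the count is not given in the sources used here.

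**Figure D2:**
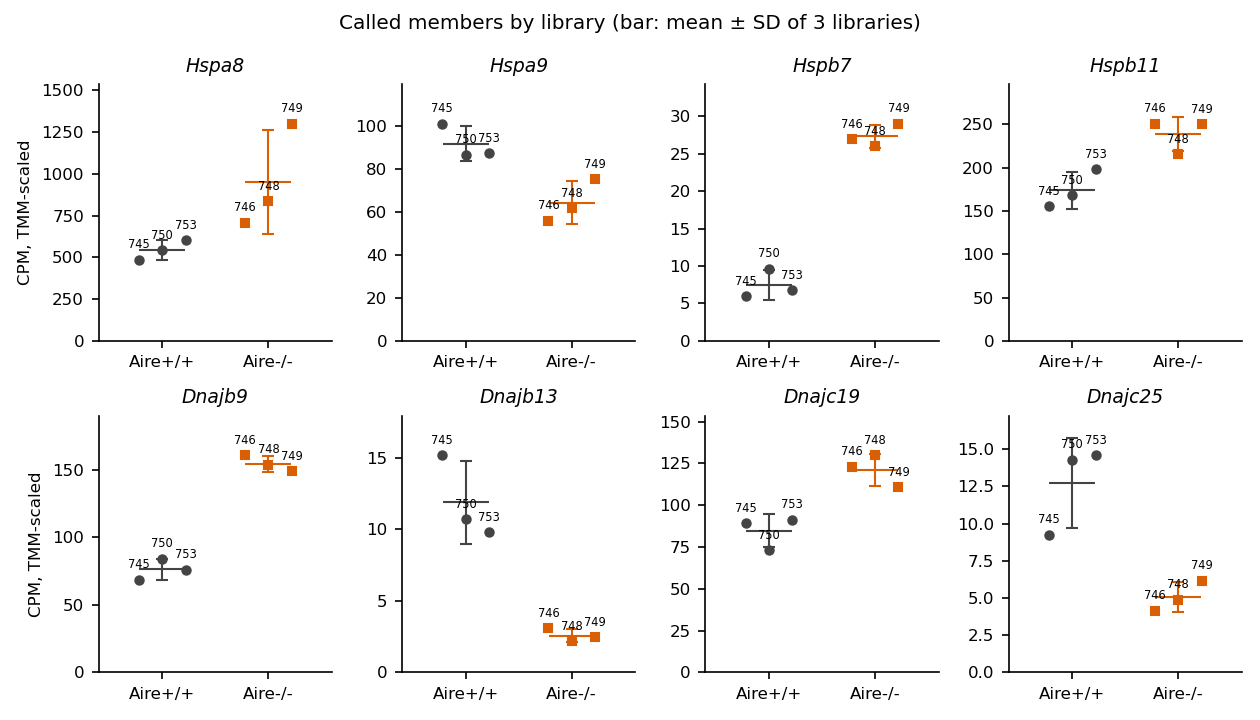
Level of the 8 called members in each library (y axis, TMM-scaled CPM from 0; circles, libraries labelled Aire+/+; squares, libraries labelled Aire-/-; bars, mean ± SD of 3; numbers, library). Circles and squares do not overlap in any panel, and library 749 lies apart for Hspa8.

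Subunits of both chaperonins showed no call. Hspd1 (HSP60) and Hspe1 (HSP10) form the mitochondrial chaperonin and start head to head on chromosome 1. Hspd1 was at 108, 111 and 112 CPM in the libraries labelled Aire+/+ and at 119, 115 and 112 CPM in the others, a log2 fold change of 0.06 (95% interval -0.21 to 0.34). It varied least of the inducible members, by a factor of 1.04 within Aire+/+ and 1.07 within Aire-/-. Hspe1 was at 366, 411 and 406 CPM against 563, 458 and 323 CPM in libraries 746, 748 and 749, a spread of 1.74-fold among the latter and 1.12-fold among the former. Its log2 fold change was 0.18 (95% interval -0.20 to 0.56).

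CCT, also called TRiC, folds actin and tubulin in the cytosol. Its 7 tested Cct subunits all had negative log2 fold changes, from -0.06 for Cct6a to -0.39 for Cct3, with a median of -0.26, and none was called. Cct3 was at 321, 249 and 287 CPM in the libraries labelled Aire+/+ and at 188, 219 and 244 CPM in libraries 746, 748 and 749 (log2 fold change -0.39, 95% interval -0.70 to -0.08, unadjusted p = 0.0179). Cct7 was at 534, 503 and 526 CPM and at 366, 448 and 439 CPM (log2 fold change -0.32). For these and for Cct2, Cct4 and Cct5 the genotypes did not overlap, beside 20.2% of all genes tested that were lower without overlap. Library 746 was the lowest in all 5. Tcp1, the first subunit of the same ring and no member by name, had -0.42 (edgeR adjusted p = 0.15) and was at 127 CPM in library 746 against 187 and 235 CPM in libraries 748 and 749.

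The subunits' direction was the same with RLE size factors and with library totals, and RLE size factors again called none. Scaling by library totals alone, which moved the median of all genes from -0.02 to -0.23, called Cct2, Cct3, Cct4, Cct5 and Cct7 lower. Relative to that shift, the CCT median of -0.46 lies about as far below all genes as with TMM. Without library 746 the CCT median was -0.183, and without libraries 746 and 753 it was -0.145, with all 7 values still negative and none called. Relative to the median of all genes, the latter was -0.121, against -0.236 with all libraries. Leaving out library 749 called Cct3 lower, alone among the Cct subunits, and made the value of Cct6a 0.05. Cct6b, a form known from testis, had 5, 9 and 4 UMIs in the libraries labelled Aire+/+ and 0 in each of the others. After TMM scaling that is at least 2.96-fold lower, counted against a floor of 3 UMIs over the group, and it was too low to be tested. With a looser filter it was called lower by edgeR (adjusted p = 0.021), and not by DESeq2 (adjusted p = 0.0831). Over all 15643 genes, 857 had 0 UMIs in every library labelled Aire-/-, whose UMI totals were lower, and 2 in every library labelled Aire+/+. Of the 6 markers of male germ cells in the table, 3 were also at 0 in every library labelled Aire-/-. The 6 markers summed to 40 to 62.6 CPM against 3.1 to 11.7 CPM, and their part in the Cct6b result was not tested.

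Prefoldin hands new actin and tubulin to CCT. Of the 9 genes listed as Tcp1, prefoldin and phosducin-like partners, all were tested and none was called. Pfdn4 came nearest, at -0.74 on the log2 scale (edgeR adjusted p = 0.0516), and Pfdn5 and Pfdn1 had positive values of 0.14 and 0.16. With RLE size factors, the looser filter or no filter, Pfdn4 was called lower. Library totals alone called Pfdn4, Tcp1 and Vbp1 lower, and leaving out library 749 called Pfdn4 and Tcp1 lower. The list's median was -0.10.

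**Figure D3:**
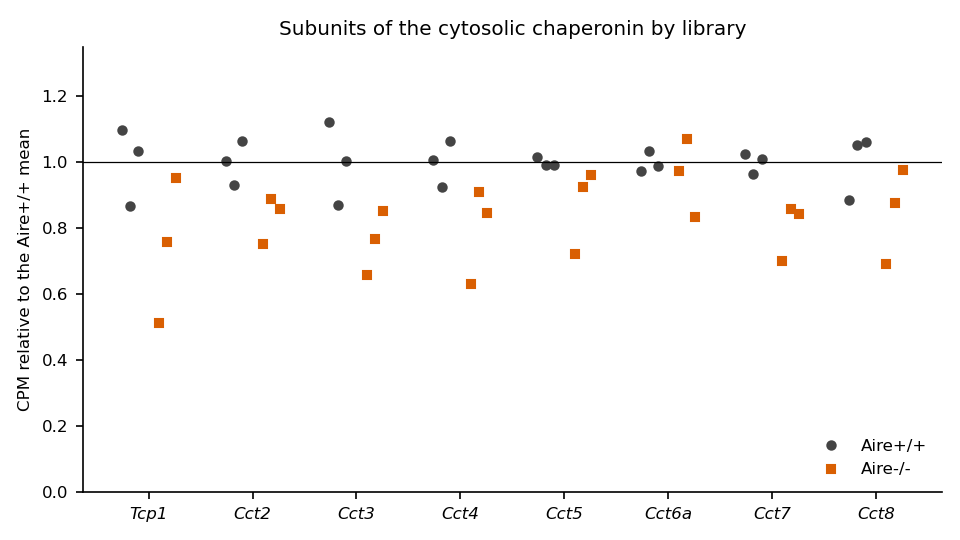
Level of each tested CCT subunit and Tcp1 in each library, divided by the mean of the 3 libraries labelled Aire+/+ (y axis, ratio of TMM-scaled CPM from 0; circles, Aire+/+, libraries 745, 750, 753 from left; squares, Aire-/-, libraries 746, 748, 749 from left). Library 746, the first square, is lowest for every subunit except Cct6a.

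J proteins carried the remaining calls. Dnajb9 encodes ERdj4, a J protein of the ER that binds BiP, takes part in the degradation of misfolded proteins and is a known target of the unfolded protein response. It lies at chr12:44205559-44210326 (minus strand, mm10). It was at 68.8, 84.2 and 76.1 CPM in the libraries labelled Aire+/+, from 208, 253 and 225 UMIs. In libraries 746, 748 and 749 it was at 161, 154 and 149 CPM, from 156, 284 and 241 UMIs. The genotypes lay apart by far more than the libraries within each, at 76.4 ± 7.75 against 155 ± 6.49 CPM (SD, n = 3). That is a log2 fold change of 1.01 (SE 0.14, 95% interval 0.72 to 1.31, edgeR adjusted p = 0.000159), or 2.02-fold. It was called in 13 of 13 alternative analyses, between 0.81 and 1.09. The last 300 bases hold a stretch of 156 bases that matches the pseudogene Gm6568 at 98.1% identity.

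Dnajb13 encodes a J protein of the radial spokes of motile cilia and sperm tails, and lies at chr7:100501716-100514960 (minus strand, mm10). It had 46, 32 and 29 UMIs in the libraries labelled Aire+/+ and 3, 4 and 4 in those labelled Aire-/-, which is 15.2, 10.7 and 9.81 CPM against 3.10, 2.17 and 2.46 CPM. The groups did not overlap. Dnajb13 had a log2 fold change of -2.23 (SE 0.40, edgeR adjusted p = 0.00137), the largest decrease of any tested member, and it was called in 13 of 13 alternative analyses. Of the 10 markers listed for ciliated-like cells, 6 were tested and 5 were called lower, beside 12.1% of all genes tested. Among them was Foxj1, the regulator of motile cilia, at -1.53, and 4 of the 10 had 0 UMIs in every library labelled Aire-/-, beside 857 of all 15643 genes. The summed level of the 10 markers was 187 to 248 CPM against 41.2 to 60.4 CPM, and their part in the Dnajb13 result was not tested. The 3′ end of Dnajb13 overlaps Ucp2 on the opposite strand, which was not called (log2 fold change 0.33, edgeR adjusted p = 0.168).

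Dnajb1, the inducible partner of HSP70 in the cytosol, was at 107, 144 and 183 CPM in the libraries labelled Aire+/+ and at 146, 118 and 90.6 CPM in libraries 746, 748 and 749. These overlap, and the log2 fold change of -0.31 (95% interval -0.76 to 0.15) was not called. Dnajb11, the ER protein ERdj3, had 0.20 and was at 106 to 113 CPM in the libraries labelled Aire+/+ and 112 to 149 CPM in the others. The other Dnajb members, among them Dnajb6, which keeps polyglutamine proteins from aggregating, and the ER membrane proteins Dnajb12 and Dnajb14, lay between -0.43 (Dnajb3) and 0.18 (Dnajb2) with no call.

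Dnajc25 fell and Dnajc19 rose. Dnajc25 was at 9.26, 14.3 and 14.6 CPM in the libraries labelled Aire+/+ and at 4.14, 4.88 and 6.16 CPM in the others. The genotypes did not overlap, and the log2 fold change was -1.29 (SE 0.35, edgeR adjusted p = 0.0188). It was called in 8 of 13 alternative analyses, and without libraries 746 and 753 it was -1.10 and not called (edgeR adjusted p = 0.13). A read-through gene model that runs into the neighbour Gng10 covers its 3′ end, and Gng10 was not called (log2 fold change 0.07).

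Dnajc19 encodes TIM14, which drives Hspa9 in the mitochondrial import motor. It was at 89.3, 73.3 and 91.4 CPM in the libraries labelled Aire+/+ and at 123, 130 and 111 CPM in the others, without overlap. The log2 fold change was 0.52 (SE 0.14, edgeR adjusted p = 0.0211), and it was called in 8 of 13 alternative analyses. The 3′ end overlaps that of Fxr1 on the opposite strand, which was also called higher (log2 fold change 0.47, edgeR adjusted p = 0.0479) and whose reads cannot be told apart without strand. Hspa9 and Dnajc19, parts of the same motor, were thus called in opposite directions.

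Of the 21 other Dnajc members tested, none was called. Dnajc18 had the most negative value, -1.29, from levels of 5.62, 4.33 and 5.08 CPM against 1.03, 2.71 and 1.85 CPM that did not overlap (unadjusted p = 0.0149). Dnajc2, which works on the ribosome, had -0.53 and Dnajc21, which takes part in making the large ribosomal subunit, had -0.45. Positive values were largest for Dnajc22, at 0.63, and Dnajc30, a mitochondrial J protein, at 0.47. The ER proteins Dnajc3, an inhibitor of the kinase PERK, and Dnajc10, a disulfide reductase, had 0.31 and 0.09. Dnajc5, which guards synaptic vesicle proteins, Dnajc7 and Dnajc8 lay within 0.11 of 0. The 3 tested Dnaja members, Dnaja2, Dnaja3 of the mitochondria and Dnaja4, had -0.22, -0.26 and -0.35, with no call.

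BAG proteins were not called. Bag1, which releases nucleotide from HSP70, was at 185, 194 and 176 CPM in the libraries labelled Aire+/+ and at 159, 158 and 162 CPM in the others, which did not overlap (log2 fold change -0.21, edgeR adjusted p = 0.266). Bag3, an inducible partner of HSP70 in autophagy, had 0.15 (95% interval -0.31 to 0.61), Bag5 had 0.01 and Bag6, which escorts tail-anchored membrane proteins and lies in the MHC region, had 0.06.

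Heat shock factor 1 drives a shared set of inducible genes, and 9 members known to belong to it were set side by side after their values had been seen. They were Hspa1a, Hspa1b, Hspb1, Dnajb1, Hspe1, Hspd1, Hsph1, Hsp90aa1 and Bag3, and none was called. Among the libraries labelled Aire-/-, library 746 was highest and library 749 lowest for 6 of the 9, the first 6 of that list. Library 745 was the lowest of those labelled Aire+/+ for the same 6. For Hsph1 and Hsp90aa1, library 749 was highest instead. The spread (highest over lowest) among the libraries labelled Aire-/- was 2.08-fold for Hspa1b, 1.92-fold for Hspb1, 1.74-fold for Hspe1 and 1.61-fold for Dnajb1. Each exceeded the fold difference between the genotypes' means, which is an unlike measure. That also held for uncalled members outside the 9, such as Bag6 (1.52-fold against 1.04-fold). Hsf1 itself, from 37.0 to 51.7 CPM over all libraries, was not called (log2 fold change 0.12).

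Library 746 stood apart in other respects as well. Immediate early genes, which tissue dissociation is known to induce, summed to 10500 CPM in library 746 and to 8200 and 8360 CPM in libraries 748 and 749, against 5300 to 6130 CPM in the libraries labelled Aire+/+. The largest single part of each sum was Nfkbia, at 4110, 3680 and 3990 CPM in libraries 746, 748 and 749 against 2050 to 2400 CPM in Aire+/+. Of the 21 of these genes that were tested, 8 were called higher and none lower, beside 8.59% and 12.1% of all genes tested. The smallest p-values among them were those of Ppp1r15a (log2 fold change 1.22), Nfkbia (0.85) and Klf2 (1.13). Without library 745, without libraries 746 and 753, or with library totals alone, 5 were called higher, and without library 748 or 749, 13. Markers of fibroblasts summed to 626 CPM in library 746, to 184 and 157 CPM in libraries 748 and 749, and to 67.9 to 106 CPM in those labelled Aire+/+. Among the libraries labelled Aire+/+, library 745 had the lowest sum of immediate early genes and the lowest levels of those 6 inducible members, although library 749 lay below it for Hspb1, Dnajb1 and Hspe1. The part of dissociation or of fibroblasts in the members' levels was not tested.

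**Figure D4:**
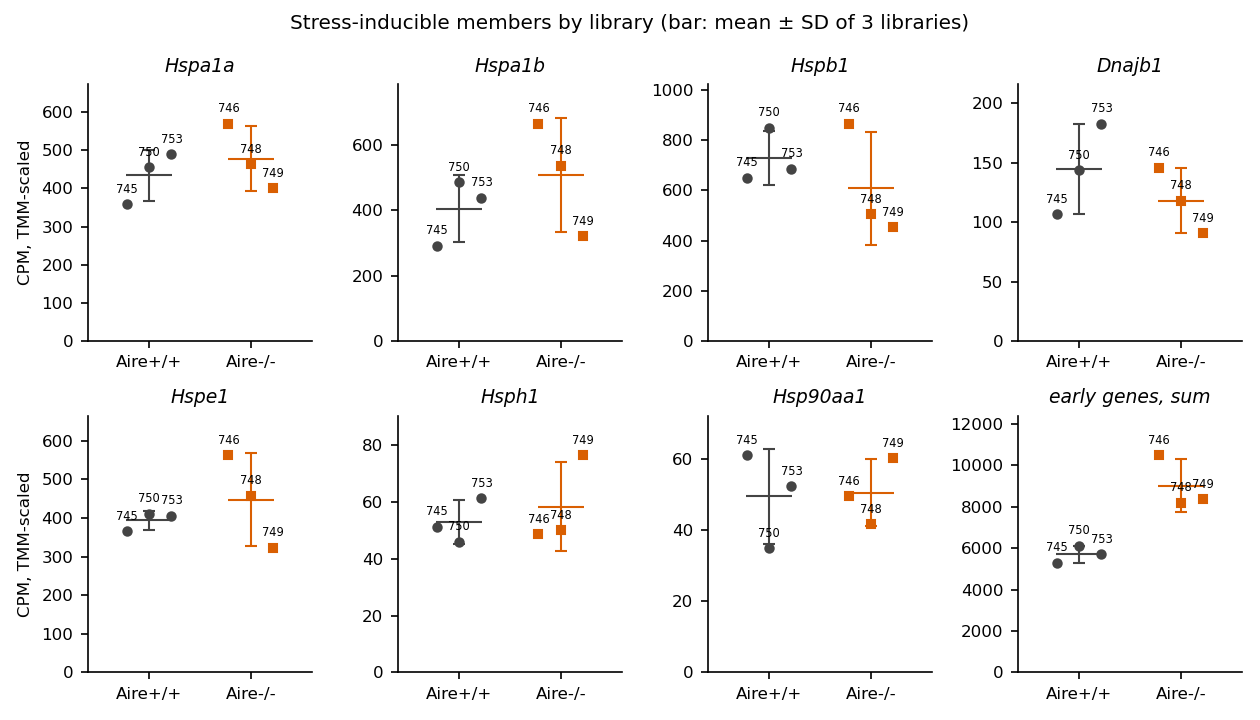
Level of 7 inducible members and the summed level of the immediate early genes in each library (y axis, TMM-scaled CPM from 0; circles, libraries labelled Aire+/+; squares, libraries labelled Aire-/-; bars, mean ± SD of 3; numbers, library). Library 746 is the highest square for Hspa1a, Hspa1b, Hspb1, Dnajb1, Hspe1 and the early genes, and library 749 the lowest for the first 5.

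The ER chaperones belong to a wider set of genes for folding and for the unfolded protein response, and several genes of that set rose. Of 32 listed genes in the table, all were tested, 8 were called higher and none lower, beside 8.59% of all genes tested called higher. The list's median log2 fold change was 0.20, against -0.02 over all genes, and 27 of the 32 values were positive. Members made up 7 of the 32, and of these Dnajb9 alone was called. The called genes outside the members were Ppp1r15a, a phosphatase subunit that ends the stress arrest of translation (1.22), the disulfide oxidase Ero1lb (0.93), the disulfide isomerase Pdia4 (0.88), Edem1 and Selenok of ER-associated degradation (0.81 and 0.71), Herpud1 of the same pathway (0.63) and Creld2 (0.45).

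Levels of the 3 called genes with the smallest p besides Dnajb9 showed no overlap. Ppp1r15a was at 178, 204 and 197 CPM in the libraries labelled Aire+/+ and at 500, 423 and 429 CPM in the others (edgeR adjusted p = 2.58e-05), and it is also counted among the immediate early genes above. Ero1lb was at 121, 104 and 118 CPM against 180, 209 and 261 CPM (edgeR adjusted p = 0.000754). Selenok was at 188, 176 and 182 CPM against 311, 257 and 324 CPM (edgeR adjusted p = 0.00172). Summed over the list, the level was 9290 to 10100 CPM in the libraries labelled Aire+/+ and 11300 to 12100 CPM in the others. Markers of cortical thymic epithelium moved with the genotype as well. All 4 tested were called higher (log2 fold changes of 0.99 to 1.58), beside 8.59% of all genes tested. The 5 such markers in the table summed to 163 to 328 CPM against 495 to 620 CPM. Their part in the rise of these genes, Dnajb9 included, was not tested.

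Other well-known genes of the response did not pass the test. Xbp1, its transcription factor, had 0.06, Hspa5 -0.13, Calr (calreticulin) 0.17, Ddit3 0.23 and Manf, a secreted ER protein, 0.33. Ero1l had the most negative value of the list, -0.74, and was not called (edgeR adjusted p = 0.192). It was at 12.2, 7.99 and 8.8 CPM in the libraries labelled Aire+/+ against 3.1, 7.59 and 5.55 CPM, without overlap. Atf6 had -0.28. With library totals alone, 7 genes of the list were called and its median was -0.001. Since that scaling moved all genes down as well, the list's median lay 0.225 above that of all genes with TMM and 0.228 above it with library totals. Values above 0 were then found for 16 of the 32 genes. The 7 calls, Dnajb9 among them, were all among the 8 made with TMM.

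**Figure D5:**
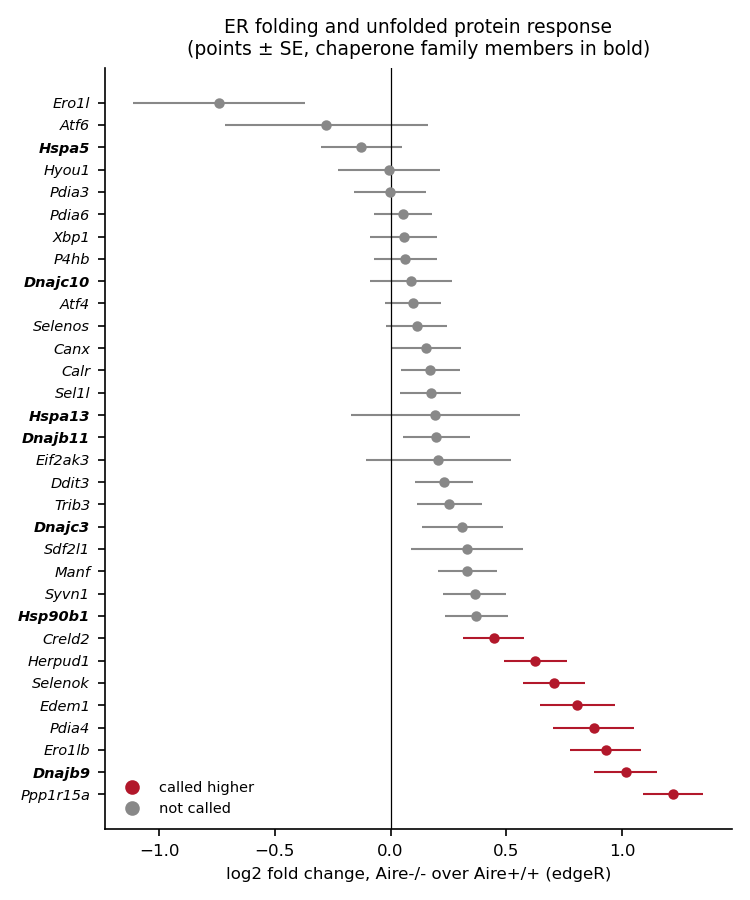
Log2 fold change of libraries labelled Aire-/- over Aire+/+ for the 32 listed genes of ER folding and the unfolded protein response (x axis, edgeR estimates ± SE; red, called higher; grey, not called; bold, members). Dnajb9 lies among the 8 red points at the bottom, while Hspa5 lies left of 0.

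The element that carries the ER response in the promoters of BiP and GRP94 is shown for these 2 members, since neither gene was called while Dnajb9 was. Capitals mark matches to the ER stress element, which is CCAAT and CCACG with 9 bases between them, searched on both strands of the 250 bases before the RefSeq start. For Hsp90b1 the window is printed up to the first exon in GENCODE, and for Hspa5 only the match with 5 flanking bases, since it lies within the first exon of a longer GENCODE transcript.
Hsp90b1, GRCm38.p6 chr10:86705510-86705694, minus strand: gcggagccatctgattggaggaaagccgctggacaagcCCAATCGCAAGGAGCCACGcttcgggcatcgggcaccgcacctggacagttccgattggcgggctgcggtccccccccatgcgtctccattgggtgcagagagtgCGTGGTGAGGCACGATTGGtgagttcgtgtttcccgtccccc
Hspa5, GRCm38.p6 chr2:34772020-34772048, plus strand: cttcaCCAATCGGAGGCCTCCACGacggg
Matches were found before 3 members, Hspa5 (1), Hsp90b1 (2) and Dnajc3 (1), and before 0.13% of all 27025 genes. None of these 3 members was called. The Dnajb9 window held no match to this element, to its second form (ATTGG and CCACG with 1 base between them) or to the XBP1 element TGACGTGG, and it lies within the first exon of the longer GENCODE transcripts. Of the members, only Dnajc25 matched TGACGTGG (0.603% of all genes do).

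Cochaperones that serve HSP70 and HSP90 had few calls. Of 26 tested genes on that list, 1 was called higher and none lower, beside 8.59% and 12.1% of all genes tested. The called gene was Cdc37, which brings kinases to HSP90. It was at 122, 129 and 106 CPM in the libraries labelled Aire+/+ and at 238, 179 and 173 CPM in the others. The genotypes did not overlap, and the log2 fold change was 0.72 (SE 0.15, edgeR adjusted p = 0.00438), but it was not called without libraries 746 and 753. Stip1, which links HSP70 to HSP90, had -0.04, Ahsa1, which speeds the ATPase of HSP90, had 0.28 and the ubiquitin ligase Stub1 had 0.22.

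The filter removed 8 members with few UMIs, namely Cct6b, Bag2, Bag4, Dnaja1, Dnajc5b, Dnajc27, Dnajc28 and Hspb3. Dnaja1, a main cytosolic partner of HSP70, had 14 UMIs in all in the libraries labelled Aire+/+ and 1 in the others, a ratio of 6.91 after TMM scaling of the library totals (exact 95% counting interval 1.05 to 292). Its last 300 bases are shared without a mismatch with a pseudogene and, on the opposite strand, with Smu1, so its count is uncertain. Dnajc5b had 11 and 3 UMIs, a ratio of 1.81 on the same scale (interval 0.478 to 10.1). Intervals and floors cover counting error only. In all, 20 members had a match of at least 80 bases and 90% identity in another transcript, Hsp90aa1, Hspd1 and Hspe1 among them, and their counts are uncertain where reads could be shared or lost.

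In the authors' deposited table, 3 members are among the 1474 selected genes (9.42% of the table), namely Dnajb9, Hspb7 and Dnajb13. That table gives log2 fold changes of Aire+/+ over Aire-/-, of -1.02 for Dnajb9 and 2.24 for Dnajb13. An adjusted p of at most 0.05 in the authors' deposited table was given to 7 members (8.97%), against 15.1% of all genes of that table.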

How the data were processed

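The 6 libraries were 3 labelled Aire+/+ and 3 labelled Aire-/-. Per the submitters' processing notes, build mm10 was used with STAR 2.4.2a, HTSeq, bcl2fastq, cutadapt and DESeq2, whose roles they do not state. The strand setting, annotation, UMI collapsing and treatment of multiply matching reads were not given in the sources used here. The values analysed were the raw UMI counts per gene that the authors deposited, named so in the file headers. The same table's normalized counts, a signal the authors scaled between libraries, and its regularized log2 values by the authors were not used. The log2 fold changes, p-values and adjusted p-values of the authors' deposited table are quoted where named.

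All 15643 genes entered edgeR 4.0.16 (R 4.3.3): TMM scaling, filterByExpr (min.count 10, 11956 genes kept), quasi-likelihood test with genotype as the only term, Benjamini-Hochberg adjustment and a threshold of 0.05. The common dispersion was 0.0241, and 95% intervals use the t quantile at edgeR's degrees of freedom. No per-sample column lacked a sample. A count of 0 allows 3 UMIs, which is 1.04 to 2.96 CPM of a library total. Alternatives were RLE factors, library totals, a min.count of 3, no filter, DESeq2 1.42.0, each library left out, libraries 746 and 753 left out, Hspa1a and Hspa1b summed, and a 2-fold minimum, which adds to the 13 refits. The fit was tested on counts simulated for these libraries with the common dispersion for every gene, so genes of higher dispersion are not covered. Of 11574 genes fitted, it recovered 86.4% of those made 4-fold lower, 56.2% of 2-fold lower, 68% of 2-fold higher and 100% of 4-fold higher. There were 10 false calls among 159. Recovery counts only changed genes that passed the filter.

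Positions and 3′ ends are from GENCODE vM21, copies from blastn 2.17.0 (last 300 bases, at least 80 bases and 90% identity) and promoter windows from RefSeq. Genes named are a core of 16 stress-inducible and constitutive members, called members, members at 0 UMIs in a genotype and up to 3 called genes of each related list. Other members and genes were named after their values were seen. Members and lists were chosen with earlier results of these data known.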

Additional observations from a re-analysis of the deposited data

How the results depend on the processing

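Library scaling moved the members' results most. With library totals alone, 12 members were called lower (17.1%, against 17.4% of all genes) and 3 higher (4.29%, against 4.69%), and their median log2 fold change was -0.201, while the median of all genes moved by -0.206 and the share of lower calls among all genes rose from 58.6% to 78.8%. DESeq2 called 1 member lower (1.28%, against 9.79% of all genes), and a minimum of 2-fold left 2 higher (2.86%, against 3%). Leaving out each library in turn gave 1 to 5 members lower and 2 to 7 higher. The count of lower members was 1 without library 748, 750 or 753 and 5 without 749, and that of higher members was 2 without library 745 and 3 without 750. With libraries 746 and 753 left out, 2 were lower and 4 higher, of which 1 and 4 were shared with the full comparison. The calls were 2.86% and 5.71% of members, against 9.69% and 5.35% of all genes. Dnajb9, Hspb7 and Dnajb13 were called in 13 of 13 refits, Hspa8 in 12, Hspb11 in 10, Dnajc19 and Dnajc25 in 8 and Hspa9 in 6. No called member changed sign in any of them. The looser filter, no filter, RLE factors and the summed Hspa1 pair kept every count of called members within 1.5 times. The causes were not tested. No paired analysis was possible because the library numbers differ between the genotypes. Depth limits members of a few UMIs, such as Dnajc18 and the 8 not tested.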
